A study of Mus musculus with 12 samples.

Results

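The genes described here are 7 matrix metalloproteinases (Mmp2, Mmp3, Mmp9, Mmp10, Mmp11, Mmp13 and Mmp14) and 3 tissue inhibitors of metalloproteinases (Timp1, Timp2 and Timp3). They were chosen by name, with earlier results of these data known. Every array probe set that carries the symbol of 1 of them alone was taken. That gave 22 probe sets out of 34945 with 1 symbol and 10 genes out of 18193. In the mouse genome Mmp9 is on chromosome 2, Mmp2 on 8, Mmp3, Mmp10 and Mmp13 on 9, Mmp11 and Timp3 on 10, Timp2 on 11, Mmp14 on 14 and Timp1 on X. All 10 genes, and 21 of the 22 probe sets, passed the filter on low signal that left 12835 genes for testing.

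Matrix metalloproteinases are zinc-dependent proteases that are made as inactive precursors and, once activated, cut collagens, laminins and other proteins of the extracellular matrix. TIMPs bind the active site and block it. In the brain these enzymes are known for work on the basement membrane of vessels and on the matrix around migrating cells, and their transcripts are widely studied in glioma. Oncogenic Ras signals through the ERK kinase pathway to transcription factors of the AP-1 and Ets families, which are known to bind the promoters of several genes of this family.

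Transcripts were measured on Affymetrix arrays in 12 samples of total RNA from p53-/- mouse brain cells of strain BL6, prepared at embryonic day 14.5, in 6 groups of 2 arrays. NSC are neural stem cells from the telencephalon, grown as floating spheres in serum-free medium with PDGF and bFGF. OPC are oligodendrocyte precursor cells induced from them with PDGFAA, bFGF and 0.25% FCS and purified by immunopanning, and AST are astrocytes induced from them with 10% FCS over 3 weeks. NSCL61, OPCL61 and ASTL61 are stable lines of the same 3 kinds of cell that were electroporated with pCMS-EGFP-HRasL61, which carries an oncogenic HRas, and with pBabe-neo, selected with neomycin at 0.5 mg/ml and purified by flow cytometry as GFP-positive cells. The loss of p53 is shared by all 6 groups. No parental array was taken through electroporation, selection and sorting, so those steps and HRasL61 cannot be told apart. The labels do not say whether the 2 arrays of a group came from separate cultures, so the p-values measure the spread between these arrays, which may be technical. In a culture, fewer cells that make a transcript and less transcript per cell cannot be told apart either.

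The median log2 signal of an array was 5.16 to 5.21, and the negative control probe sets averaged 2.97 to 3.17. The 5' control probe set for 18S RNA ranged from 7.91 to 12.6 and stood above 11 on array 2 of NSC, of NSCL61 and of OPC. The labelled cell types were checked against marker lists. Olig2, a defining gene of oligodendrocyte precursors, read 12.31 and 12.24 in OPC, and all 10 precursor markers were above the median of all values (5.18) on both OPC arrays. The stem cell factor Sox2 read 4.41 and 6.79 in NSC against 11.84 and 11.66 in NSCL61, and 3 of 9 stem cell markers with a probe set were above the median on both NSC arrays. On both arrays 6 of 10 astrocyte markers were above the median in AST and 7 in OPC, and the log2 of their summed signal was 11.94 to 12.05 in AST and 14.36 on both OPC arrays. In AST the gap junction gene Gja1 read 11.81 and 11.67, while Gfap (5.42 and 5.73) and Aqp4 (5.07 and 4.80) were close to the median. Of 12 fibroblast and pericyte markers, 9 were above the median on both arrays in NSC, 7 in AST and in ASTL61, 4 in NSCL61 and in OPCL61, and 2 in OPC. The log2 of their summed signal was 15.54 to 15.69 in NSC, 14.34 to 14.66 in AST, 14.81 to 14.91 in ASTL61, 10.71 to 10.74 in NSCL61, 10.66 to 10.80 in OPCL61 and 8.81 to 8.95 in OPC. Of 11 microglia and macrophage markers with a probe set 2 or 3 were above the median in each group, and of 8 endothelial markers 1. The markers thus go against the label of NSC, whose arrays had little Sox2 and the highest fibroblast and pericyte signal. The astrocyte markers do not bear out the label of AST either. The log2 of their summed signal was 12.3 to 12.4 in NSC, above AST, and Gja1 read 12.10 and 12.17 in NSC. NSC and AST stand below for the cultures so labelled, and each difference from either is a difference from those cultures. The precursor signal was lower in OPCL61 than in OPC: 9 of 10 precursor markers fell from OPC to OPCL61 and none rose, with a median difference of -4.38, and Olig2 read 6.82 and 5.90 in OPCL61. Of 9 astrocyte markers tested, 6 fell there and 1 rose. The part of these shifts in the differences between OPCL61 and OPC was not tested.

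Mmp13, Mmp3 and Mmp10 lie close together on mouse chromosome 9, in a run of protein-coding genes that RefSeq orders as Mmp13, Mmp12, Mmp1b, Mmp3, Mmp1a, Mmp10, Mmp8, Mmp27 and Mmp20. The 250 bases before their annotated starts are shown because these 3 genes moved together between arrays of 1 group, and those of Timp1 because it moved with them in ASTL61 and had the largest difference among the 10 genes between a line and its parent. Capitals mark matches to 3 motifs: the AP-1 site (TGANTCA, which reads the same on both strands), the Ets site known as PEA3 (AGGAAG, searched on both strands) and the TATA box (TATAAA, on the strand of the gene). All 4 stretches are on the plus strand of assembly GRCm38, from RefSeq's GRCm38.p6 table: chr9:7272264-7272513 for Mmp13, chr9:7445572-7445821 for Mmp3, chr9:7502092-7502341 for Mmp10 and chrX:20869916-20870165 for Timp1.
Mmp13: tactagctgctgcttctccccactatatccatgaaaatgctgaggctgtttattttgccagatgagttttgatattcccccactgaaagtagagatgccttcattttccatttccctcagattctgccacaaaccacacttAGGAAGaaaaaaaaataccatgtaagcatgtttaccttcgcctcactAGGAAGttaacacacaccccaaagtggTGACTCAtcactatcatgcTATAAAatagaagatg
Mmp3: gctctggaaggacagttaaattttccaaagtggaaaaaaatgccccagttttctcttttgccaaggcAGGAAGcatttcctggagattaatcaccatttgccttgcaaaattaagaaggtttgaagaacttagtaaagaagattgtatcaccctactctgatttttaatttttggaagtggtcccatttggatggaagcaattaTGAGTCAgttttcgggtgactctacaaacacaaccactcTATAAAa
Mmp10: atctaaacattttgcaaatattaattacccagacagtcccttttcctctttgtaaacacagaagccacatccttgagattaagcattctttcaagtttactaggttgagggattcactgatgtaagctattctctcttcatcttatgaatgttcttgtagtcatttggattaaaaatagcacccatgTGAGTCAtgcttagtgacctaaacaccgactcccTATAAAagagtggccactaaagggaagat
Timp1: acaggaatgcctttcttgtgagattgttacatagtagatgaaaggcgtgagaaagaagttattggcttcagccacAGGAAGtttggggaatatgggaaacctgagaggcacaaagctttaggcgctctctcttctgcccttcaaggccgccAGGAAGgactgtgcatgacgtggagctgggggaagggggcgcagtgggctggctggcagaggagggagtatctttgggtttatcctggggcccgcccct

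A promoter window of 300 bases, from 250 before to 50 after the start, was found for 8 of the 10 genes in that table, the exceptions being Mmp2 and Mmp9. Mmp13, Mmp3 and Mmp10 each held 1 AP-1 match, which began 35 bases before the start in Mmp13 (TGACTCA), 46 in Mmp3 (TGAGTCA) and 63 in Mmp10 (TGAGTCA). Each also held a TATA match, 16, 7 and 29 bases before the start in the same order. The windows of Mmp11, Mmp14, Timp1, Timp2 and Timp3 held no exact match to either motif. Variants of these letters were not searched for, so a variant site in those windows would be missed. Of 32851 promoter windows of the same length, 7.81% held an AP-1 match and 8.32% a TATA match. PEA3 matches were found in 35.4% of all windows and in those of Mmp13 (2), Mmp3 (1), Timp3 (1), Mmp14 (1) and Timp1 (3, of which 1 lies after the start). A match is a run of letters in the sequence, and no binding was measured.

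The first question is how the stable HRasL61 lines differed from their parents, and it was asked of all 12 arrays in a single limma model. In NSCL61 the gelatinase Mmp2, its membrane-bound activator Mmp14, Mmp11, Timp2 and Timp3 fell, and the stromelysin Mmp10 rose. In OPCL61 Timp1, Timp2, Mmp3 and Mmp9 rose and Timp3 fell. In ASTL61 none of the 10 genes passed the threshold, an adjusted p of 0.05. The members past it were therefore 1 higher and 5 lower in NSCL61, where 20.7% of the 12835 genes tested were called higher and 17.1% lower. They were 4 higher and 1 lower in OPCL61, where 24.5% of all genes were called higher and 23.9% lower. In ASTL61 0.0234% of all genes were called higher and 0% lower, so a count of 0 members there stands beside 3 genes called in all. At an unadjusted p under 0.05 limma gave 4 of the 10 members (Mmp2, Mmp3, Timp1 and Timp3) and 941 genes in ASTL61. The median log2 difference of the 10 genes was -0.88 in NSCL61, 1.42 in OPCL61 and 1.05 in ASTL61, against 0.04, 0.05 and 0.00 over all genes tested.

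**Figure D1:**
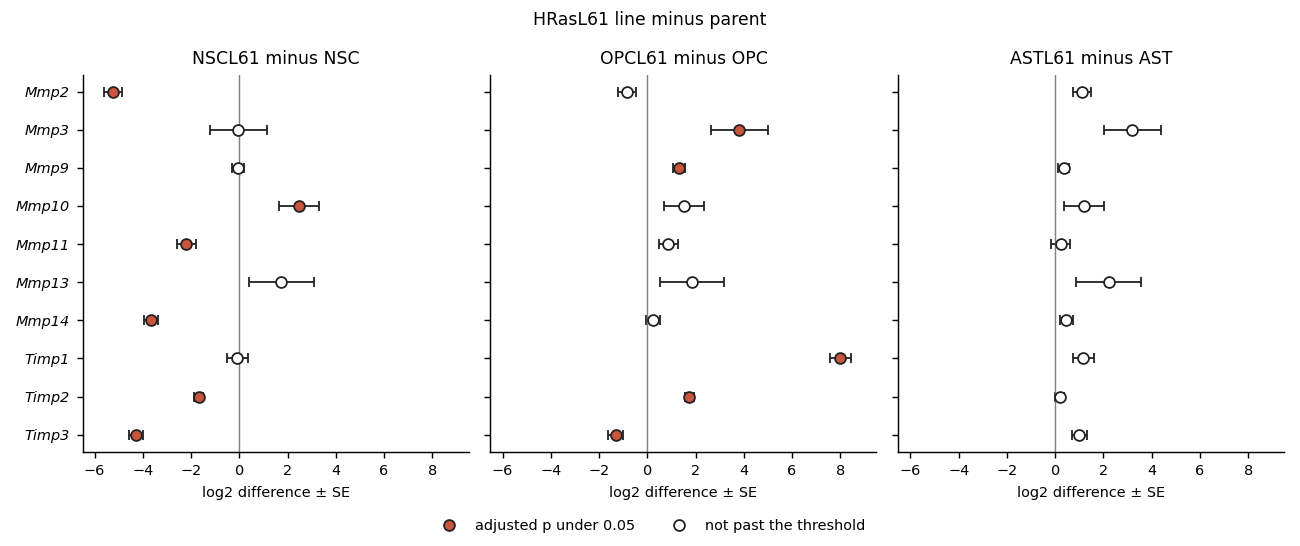
Log2 difference of each HRasL61 line from its parent for the 10 genes, with the standard error from limma as bars (2 arrays in each group). Filled points passed an adjusted p of 0.05. In NSCL61 5 of the 6 filled points lie below 0, in OPCL61 4 of 5 lie above it, and in ASTL61 all 10 points lie above 0 and none is filled.

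Mmp2 is a gelatinase that cuts denatured collagen and collagen of basement membranes. Its log2 signal on arrays 1 and 2 was 11.23 and 11.44 in NSC, 6.14 and 6.06 in NSCL61, 6.65 and 6.23 in OPC, 6.002 and 5.16 in OPCL61, 8.37 and 7.16 in AST, and 8.73 and 9.02 in ASTL61. Both NSC arrays stood above all others, and no 2 groups that neighbour each other in the order of means overlapped. In NSCL61 it fell by 5.23 ± 0.38 on the log2 scale, to 37.6-fold below its parent (adjusted p = 8.4e-06), and the second Mmp2 probe set fell by 5.41. In OPCL61 the difference was -0.86 ± 0.38 (adjusted p = 0.089), and without array 1 of OPCL61 it was -1.28 (adjusted p = 0.0349). ASTL61 differed from AST by 1.11 ± 0.38 (adjusted p = 0.547).

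Mmp14 is a protease anchored in the plasma membrane that cuts the precursor of Mmp2 with the help of Timp2. Its signal was 11.26 and 10.63 in NSC, 7.37 and 7.24 in NSCL61, 3.77 and 4.67 in OPC, 4.53 and 4.41 in OPCL61, 10.11 and 9.83 in AST, and 10.54 and 10.33 in ASTL61. By this probe set, the one used for the gene, the groups fell into 3 bands. NSC, AST and ASTL61 were at the top, NSCL61 between, and OPC and OPCL61, which overlap, below the median of all values. In the dimmest Mmp14 probe set NSCL61 (mean 5.46) was close to OPC (5.25) and OPCL61 (5.22). Mmp14 fell by 3.65 ± 0.29 in NSCL61 (adjusted p = 1.36e-05), and all 3 of its probe sets fell, with differences of -3.66 to -2.13. In OPCL61 the difference was 0.25 ± 0.29 (adjusted p = 0.507). Without the 3 arrays of high 18S control it was 0.70 (adjusted p = 0.0357), and without array 1 of OPC alone it was -0.20.

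Timp2, the inhibitor that also links Mmp14 to the precursor of Mmp2, is covered by 6 probe sets. The brightest, used for the gene, read 12.92 and 12.72 in NSC, 11.17 and 11.10 in NSCL61, 9.48 and 9.28 in OPC, 11.15 and 11.10 in OPCL61, 11.88 and 12.04 in AST, and 11.84 and 12.47 in ASTL61. By it Timp2 fell by 1.68 ± 0.19 in NSCL61 (adjusted p = 0.000118) and rose by 1.74 ± 0.19 in OPCL61 (adjusted p = 6.41e-05). The fall in NSCL61 was also seen in 4 of the other 5 probe sets, at -3.36 to -2.96. The rise in OPCL61 was not: the other 5 differed by 0.07 to 0.16, none past the threshold. The mean of the 5 probe sets that passed the filter gave 0.44 (adjusted p = 0.123). In 1 of the other 5, for example, the signal was 9.63 and 9.53 in OPC and 9.78 and 9.52 in OPCL61. The dimmest lay between 3.26 and 3.77 on every array, under the filter. The call of Timp2 in OPCL61 therefore rests on 1 probe set of 6.

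**Figure D2:**
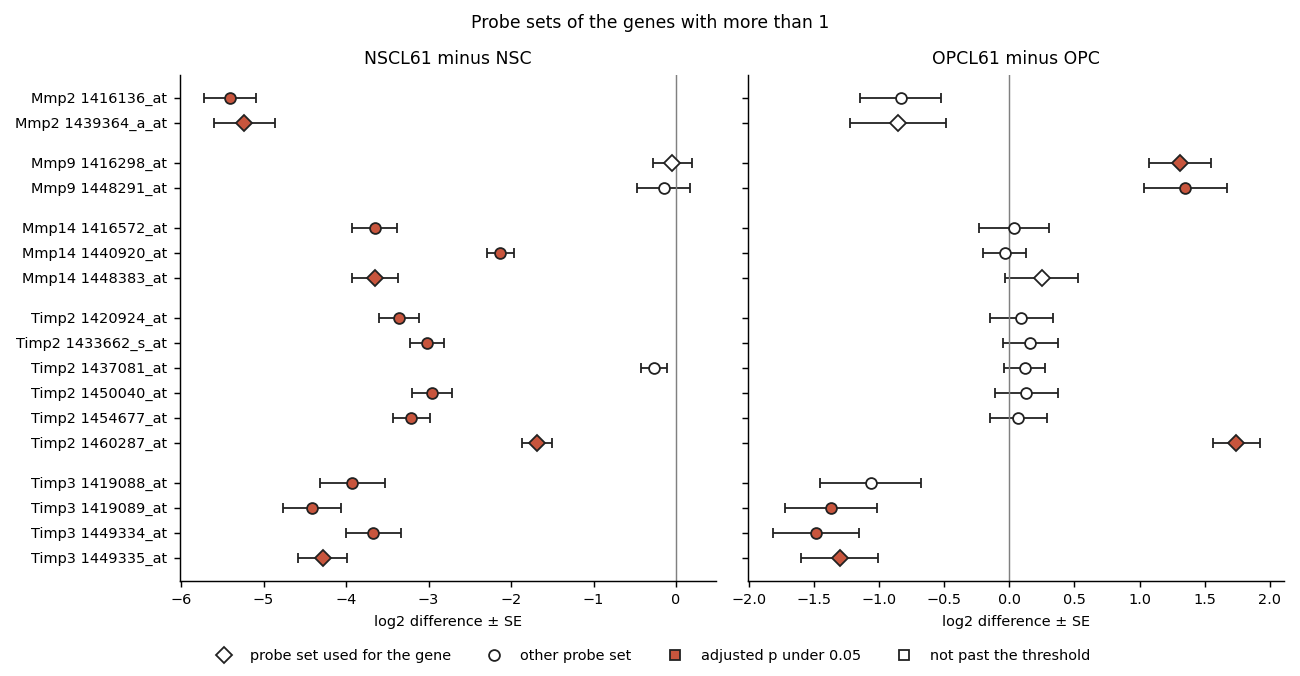
Log2 difference from the parent in NSCL61 and OPCL61 for each probe set of the 5 genes with more than 1, with its standard error (2 arrays in each group). Diamonds mark the probe set used for the gene and filled symbols an adjusted p under 0.05 over all 34945 probe sets. For Timp2 in OPCL61 the probe set used stands at 1.74 and the other 5 lie between 0.07 and 0.16.

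Timp3 is the inhibitor that stays bound to the matrix. Its signal was 11.01 and 10.68 in NSC, 6.59 and 6.53 in NSCL61, 9.02 and 8.25 in OPC, 7.64 and 7.01 in OPCL61, 10.64 and 10.27 in AST, and 11.17 and 11.73 in ASTL61. By this probe set, the one used for the gene, NSCL61 was the lowest group and ASTL61 the highest, with no overlap between neighbours in that order. In every other Timp3 probe set these groups also had the lowest and the highest mean, but the arrays of NSC and AST overlapped. Some of those probe sets also overlapped between NSCL61 and OPCL61 or between ASTL61 and NSC. Timp3 fell by 4.28 ± 0.30 in NSCL61 (adjusted p = 7.53e-06), with all 4 probe sets past the threshold. It fell by 1.30 ± 0.30 in OPCL61 (adjusted p = 0.00594), with 3 of 4 past it. In ASTL61 the difference was 1.00 ± 0.30, the smallest adjusted p of the 10 genes in that line (0.475).

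Timp1 is a secreted inhibitor that growth factors and cytokines are known to induce. Its signal was 3.96 and 4.22 in OPC, under the median of all values, and 11.03 to 13.16 on the 10 arrays of the other 5 groups. OPCL61, at 12.48 and 11.72, lay 8.01 ± 0.44 above OPC (adjusted p = 1.02e-06), among the arrays of the other lines. Since OPC may be at background, that size may be a lower bound. In NSCL61 (12.08 and 11.96) the difference from NSC (12.45 and 11.75) was -0.08 ± 0.44 (adjusted p = 0.906). ASTL61 read 11.72 and 13.16 against 11.53 and 11.03 in AST, a difference of 1.16 ± 0.44 (adjusted p = 0.613).

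Mmp11 is a protease that furin activates inside the cell. It read 6.39 and 6.97 in NSC, 4.56 and 4.42 in NSCL61, 3.71 and 4.22 in OPC, 5.52 and 4.16 in OPCL61, 5.88 and 5.85 in AST, and 6.38 and 5.82 in ASTL61. Its fall of 2.19 ± 0.40 in NSCL61 passed the threshold (adjusted p = 0.00225) and missed it without the 3 arrays of high 18S control (-1.84, adjusted p = 0.0992). The difference of 0.88 ± 0.40 in OPCL61 missed it (adjusted p = 0.0973), and without array 2 of OPCL61 it was 1.56 (adjusted p = 0.00419).

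Mmp9 is the other gelatinase. By the probe set used it was near the median of all values in every group, between 4.78 and 6.62 over the 12 arrays. Its mean was highest in OPCL61, at 6.62 and 5.71 against 4.78 and 4.92 in OPC, and the 2 OPC arrays were the lowest of all 12. The rise of 1.31 ± 0.24 in OPCL61 (adjusted p = 0.00166) was also called in its second probe set, at 1.35. In NSCL61 the difference was -0.05 ± 0.24 and in ASTL61 0.35 ± 0.24, neither past the threshold (adjusted p = 0.904 and 0.812). The second probe set was dimmer, with means of 3.82 to 4.25 in NSC, NSCL61, OPC and AST. Its means in OPCL61 (5.21) and ASTL61 (5.16) were close. By it ASTL61 differed from AST by 0.91, not past the threshold, and from NSCL61 by 1.34, past it in the fit of all probe sets.

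**Figure D3:**
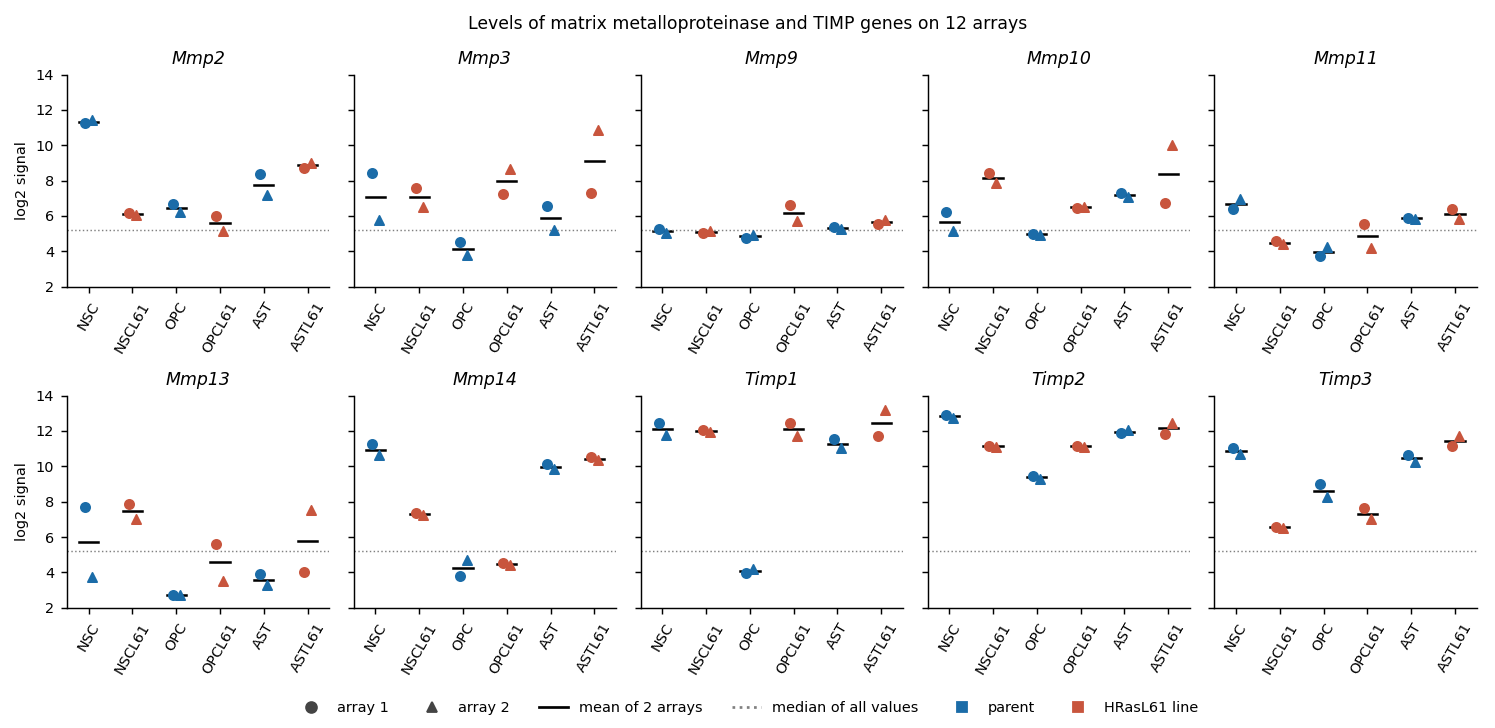
Log2 signal of the 10 genes on every array, with circles for array 1, triangles for array 2 and a bar at the mean of the 2 arrays of a group. Mmp2, Mmp14 and Timp3 are high in NSC and low in NSCL61, Timp1 is low in OPC alone, and Mmp3, Mmp10 and Mmp13 have wide gaps between the 2 arrays of ASTL61.

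The stromelysins Mmp3 and Mmp10 cut many matrix proteins and activate other proteases of the family, and Mmp13 is a collagenase. For Mmp3 the signal was 8.45 and 5.75 in NSC, 7.60 and 6.53 in NSCL61, 4.51 and 3.80 in OPC, 7.27 and 8.65 in OPCL61, 6.57 and 5.22 in AST, and 7.30 and 10.88 in ASTL61. OPC was lowest, and each of the other groups overlapped its neighbour in the order of means. Mmp3 rose by 3.81 ± 1.18 in OPCL61 (adjusted p = 0.0235). The call was lost without array 1 of OPC (4.16, adjusted p = 0.0599), array 2 of OPC (3.45, adjusted p = 0.112) or array 2 of OPCL61 (3.12, adjusted p = 0.124), and without the 3 arrays of high 18S control (3.45, adjusted p = 0.117). In ASTL61 the difference was 3.20 ± 1.18 (adjusted p = 0.594), and in NSCL61 -0.04 ± 1.18 (adjusted p = 0.985).

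Mmp10 read 6.23 and 5.14 in NSC, 8.43 and 7.89 in NSCL61, 4.99 and 4.94 in OPC, 6.46 and 6.52 in OPCL61, 7.27 and 7.09 in AST, and 6.74 and 10.03 in ASTL61. NSCL61 stood above NSC on both arrays, and OPC was at the bottom. The rise of 2.47 ± 0.82 in NSCL61 (adjusted p = 0.039) missed the threshold without array 2 of NSC (1.93, adjusted p = 0.193), array 1 of NSCL61 (2.21, adjusted p = 0.171) or array 2 of NSCL61 (2.74, adjusted p = 0.0943), and without the 3 arrays of high 18S control (2.20, adjusted p = 0.332). OPCL61 differed from OPC by 1.53 ± 0.82 (adjusted p = 0.155), with no overlap of arrays. For ASTL61 the difference from AST was 1.20 ± 0.82 (adjusted p = 0.807). Without array 1 of ASTL61 it was 2.84 (adjusted p = 0.0223) and without array 2 it was -0.44.

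Mmp13 was on either side of the median of all values within 3 groups. It read 7.68 and 3.76 in NSC, 5.59 and 3.53 in OPCL61, and 4.04 and 7.55 in ASTL61. NSCL61, at 7.88 and 7.04, was the group in which both arrays were above it, and OPC (2.70 and 2.71) was under the mean of the negative controls. AST read 3.90 and 3.27. None of the 3 lines passed the threshold: the difference was 1.74 ± 1.34 in NSCL61 (adjusted p = 0.349), 1.86 ± 1.34 in OPCL61 (adjusted p = 0.283) and 2.21 ± 1.34 in ASTL61 (adjusted p = 0.777).

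Mmp3, Mmp10 and Mmp13 differed together between the 2 arrays of ASTL61. Array 1 minus array 2 was -3.59 for Mmp3, -3.28 for Mmp10, -3.50 for Mmp13 and -1.44 for Timp1, where 99% of all genes tested differed by less than 1.29 in either direction. Array 2 of ASTL61 was the higher in each. Between the 2 arrays of NSC the difference ran the other way round, at 2.70 for Mmp3, 3.92 for Mmp13, 1.08 for Mmp10 and 0.69 for Timp1, against a 99% limit of 1.55 that Mmp3 and Mmp13 passed. In OPCL61 Mmp13 differed by 2.07 and Mmp3 by -1.38, so the 2 did not run together there. The other 6 genes stayed inside the limit of their group between the arrays of NSC, NSCL61, OPC, OPCL61 and ASTL61, and in AST Mmp2 (1.21) was outside it (0.85), as was Mmp3 (1.34). In ASTL61 the 18S control was 10.3 on array 1 and 8.72 on array 2, and in NSC 7.91 and 12.1. Its part in the gaps was not tested. In NSCL61, where the limit was 0.62, Mmp3 (1.07) and Mmp13 (0.84) were outside it, with array 1 the higher. Mmp12, Mmp1b and Mmp1a lie between these genes on chromosome 9. Mmp1b read 3.18 and 3.37 in ASTL61 and 3.08 and 3.09 in NSC, near the negative controls. Mmp12 and Mmp1a were under the filter. Wide gaps were also seen in marker genes outside this run of neighbours. In ASTL61 Rgs5 read 4.75 and 7.21 and Dcn 8.27 and 10.50, while Col1a2 read 12.94 and 12.80. In NSC such gaps ran both ways. Rgs5 read 7.57 and 4.85, Lum 7.65 and 5.30 and Stmn2 9.35 and 5.22. With array 2 the higher, Sox2 read 4.41 and 6.79, Pax6 4.34 and 6.09 and S100a4 11.48 and 13.31.

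**Figure D4:**
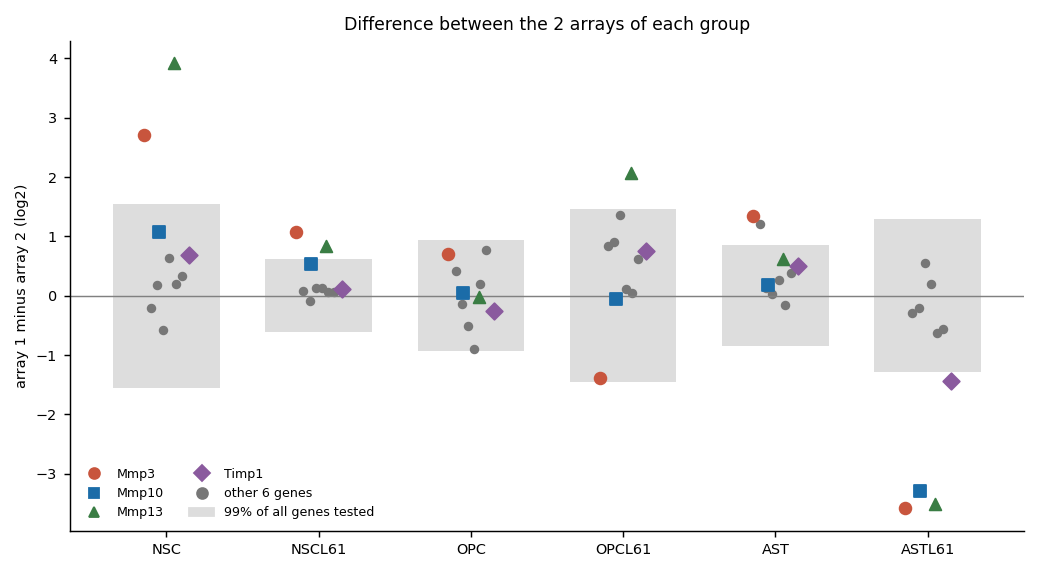
Array 1 minus array 2 of each group for the 10 genes, on the log2 scale, with grey bars that hold 99% of the 12835 genes tested in that group. In ASTL61 Mmp3, Mmp10 and Mmp13 lie between -3.59 and -3.28, and in NSC Mmp3 and Mmp13 lie at 2.70 and 3.92.

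Next, the changes of the lines were compared with each other, as a limma test of the difference between 2 differences. These comparisons share arrays, since each change enters 2 of them. Against the change in NSCL61, the change in OPCL61 was higher for 7 genes and lower for none, where 37.9% of all genes differed in either direction. The gaps were 8.09 ± 0.62 for Timp1 (adjusted p = 1.38e-05), 4.38 ± 0.53 for Mmp2, 3.89 ± 0.40 for Mmp14, 3.43 ± 0.26 for Timp2, 3.07 ± 0.56 for Mmp11, 2.98 ± 0.43 for Timp3 and 1.36 ± 0.34 for Mmp9 (adjusted p = 0.0121). By the probe set used, Timp1, Mmp14, Mmp11 and Mmp9 were under the median of all values on both OPC arrays. A fall in OPCL61 from such a level, which may be background, may not be measurable. The change in ASTL61 was higher than that in NSCL61 for 5 genes and lower for none, where 25.3% of all genes differed. Mmp2 was apart by 6.35 ± 0.53 (adjusted p = 4.78e-05), Timp3 by 5.28 ± 0.43, Mmp14 by 4.11 ± 0.40, Mmp11 by 2.43 ± 0.56 and Timp2 by 1.88 ± 0.26. Between OPCL61 and ASTL61 35.4% of all genes and 4 of the 10 differed: Timp1 changed by 6.85 ± 0.62 more in OPCL61 and Timp2 by 1.55 ± 0.26 more, and Timp3 (-2.30 ± 0.43) and Mmp2 (-1.97 ± 0.53) by less. With the mean of its probe sets the Timp2 gap between OPCL61 and ASTL61 was 0.15 (adjusted p = 0.745), and that between ASTL61 and NSCL61 was 3.14. The Mmp2 gap missed the threshold without array 1 of OPC (-1.76, adjusted p = 0.0617), array 2 of OPCL61 (-1.55, adjusted p = 0.0592) or array 2 of ASTL61 (-1.82, adjusted p = 0.0562). Without the 3 arrays of high 18S control it missed it too (adjusted p = 0.0773), as did Mmp9 (0.103) and Mmp11 (0.053) between OPCL61 and NSCL61 and Mmp11 (0.145) between ASTL61 and NSCL61, each an adjusted p.

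The levels in the lines themselves were compared as well. ASTL61 stood above NSCL61 for 5 genes: Timp3 by 4.89 ± 0.30, Mmp14 by 3.13 ± 0.29, Mmp2 by 2.78 ± 0.38, Mmp11 by 1.61 ± 0.40 and Timp2 by 1.02 ± 0.19, with adjusted p between 5.63e-06 and 0.0127. No gene of the 10 was lower, where 16.1% of all genes were called higher and 16.6% lower. OPCL61 was below ASTL61 for the same 5 genes, with differences of -5.96 ± 0.29 for Mmp14, -4.12 ± 0.30 for Timp3, -3.29 ± 0.38 for Mmp2, -1.26 ± 0.40 for Mmp11 and -1.03 ± 0.19 for Timp2, where 18.9% of all genes were called higher and 17.7% lower. OPCL61 minus NSCL61 was -2.83 ± 0.29 for Mmp14 and 1.06 ± 0.24 for Mmp9, the 2 genes past the threshold, against 13.3% of all genes called higher and 13.4% lower. In the dimmest Mmp14 probe set that difference was -0.24, not past the threshold. With the mean of its probe sets Timp2 was further apart, at 2.19 for ASTL61 minus NSCL61 and -1.94 for OPCL61 minus ASTL61, and Mmp14 less far for OPCL61 minus NSCL61 (-1.72), all past the threshold. In 3 of these results the call was lost with 1 array left out, a setting that leaves a single array in that group. For Mmp9 between OPCL61 and NSCL61 it was lost without array 1 or array 2 of NSCL61, though the difference stayed at 1.022 and 1.105. For Mmp11 it was lost between ASTL61 and NSCL61 without array 1 (adjusted p = 0.0557) or array 2 of NSCL61 (adjusted p = 0.0696) or array 1 of ASTL61 (adjusted p = 0.0829), and between OPCL61 and ASTL61 without array 2 of OPCL61 (adjusted p = 0.203) or array 1 of ASTL61 (adjusted p = 0.173). Without the 3 arrays of high 18S control these 3 calls and that of Timp2 between ASTL61 and NSCL61 (adjusted p = 0.0525) were lost.

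The parental cell types differed from each other too. In OPC 6 genes were lower than in NSC and none higher, beside 27.2% of all genes called higher and 24.3% lower: Timp1 (-8.01 ± 0.44), Mmp14 (-6.73 ± 0.29), Mmp2 (-4.90 ± 0.38), Timp2 (-3.44 ± 0.19), Mmp11 (-2.72 ± 0.40) and Timp3 (-2.22 ± 0.30), with adjusted p between 9.86e-08 and 0.000359. All 10 differences had that sign. OPC was also below AST for 7 genes and above it for none, where 26.1% of all genes were called higher and 25.6% lower. Beside the same 6 genes, led by Timp1 (-7.19 ± 0.44) and Mmp14 (-5.75 ± 0.29), Mmp10 was lower, at -2.22 ± 0.82 (adjusted p = 0.0456), a call lost without any 1 of the 4 OPC and AST arrays (adjusted p between 0.121 and 0.146). The Mmp2 difference was -1.33 ± 0.38 (adjusted p = 0.0148), and that call was lost without array 2 of OPC (-1.12, adjusted p = 0.0955) or array 1 of AST (-0.72, adjusted p = 0.113). Without the 3 arrays of high 18S control both calls were lost (adjusted p = 0.191 and 0.161).

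AST was below NSC for 3 genes and above it for none, where 15.4% of all genes were called higher and 15% lower. The 3 were Mmp2 (-3.57 ± 0.38, adjusted p = 0.000208), Mmp14 (-0.98 ± 0.29, adjusted p = 0.0287) and Timp2 (-0.86 ± 0.19, adjusted p = 0.00797). The Mmp14 call was lost without array 1 of NSC (adjusted p = 0.172) or array 1 (adjusted p = 0.0683) or array 2 of AST (adjusted p = 0.157), and the Timp2 call without array 1 of AST (adjusted p = 0.0554) or without the 3 arrays of high 18S control (adjusted p = 0.0646). Without array 2 of NSC, on which Mmp13 read 3.76, Mmp13 passed the threshold in OPC (-4.98, adjusted p = 0.012) and in AST (-4.10, adjusted p = 0.0492) against NSC, and Mmp3 in OPC (-4.30, adjusted p = 0.0245). With all arrays these 3 differences missed it, at -3.02 ± 1.34, -2.13 ± 1.34 and -2.95 ± 1.18. NSC, AST and ASTL61, the groups with the highest mean Mmp2, Mmp14, Mmp11, Timp2 and Timp3, were also the 3 with the highest summed signal of the fibroblast and pericyte markers given above. In NSCL61 9 of the 10 such markers that were tested fell and none rose, and in OPC all 10 were below NSC. The part of such cells in these results was not tested.

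Of the other matrix metalloproteinases and Timp4, a list of 17, 8 genes were tested. In NSCL61 1 rose and 3 fell, beside 20.7% of all genes higher and 17.1% lower, with a median difference of -0.19. For this list and the 4 that follow, counts in NSCL61 stand beside those shares, and counts in OPCL61 beside 24.5% of all genes higher and 23.9% lower. Mmp1b, a neighbour of Mmp3 on chromosome 9, rose by 2.91 ± 0.15, from 3.08 and 3.09 in NSC, at the level of the negative controls, to 6.16 and 5.82 in NSCL61. It lay between 2.74 and 3.41 on the 8 arrays of the remaining groups. Its close copy Mmp1a was under the filter, with means of 4.19 in NSCL61 and 4.18 in OPCL61 against 2.82 to 2.97 in the other 4 groups, and how far probes of either bind the other was not tested. Mmp16, a membrane-bound relative of Mmp14, fell by 2.14 ± 0.24. Mmp19 fell by 1.45 ± 0.27. In OPCL61 1 rose and 3 fell, with a median of -0.05. The brain-enriched inhibitor Timp4 fell by 3.12 ± 0.11, from 9.98 on both OPC arrays to 6.82 and 6.89, in the comparison in which 9 of 10 precursor markers fell, and was between 4.94 and 5.17 in the 4 groups outside the precursor lineage. Mmp16 fell by 2.54 ± 0.24 there, and Mmp17, another membrane-bound member, fell by 0.81 ± 0.18. In OPCL61 Timp1 rose while Timp3 and Timp4 fell.

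The list of activators, cofactors and inhibitors holds 21 genes, of which 16 were tested. In NSCL61 3 rose and 5 fell (median -0.07), beside 20.7% and 17.1% of all genes. Pcolce, which enhances the removal of the collagen propeptide, fell by 2.59 ± 0.16. Reck, a membrane-anchored inhibitor of several metalloproteinases, fell by 2.18 ± 0.23, and Lrp1, a receptor that clears proteases from the cell surface, fell by 2.40 ± 0.38. In OPCL61 7 rose and 4 fell (median 0.93), beside 24.5% and 23.9% of all genes. Pcolce rose by 4.79 ± 0.16 there, the matrix protein Thbs1 by 6.44 ± 0.31 and Cd44, a hyaluronan receptor that can hold metalloproteinases at the cell surface, by 3.89 ± 0.26. Reck, named after its values were seen, fell by 2.24 ± 0.23 in OPCL61 as well, and differed by 0.46 ± 0.23 in ASTL61 (adjusted p = 0.721). Its signal was 7.53 and 6.84 in NSC, 5.12 and 4.89 in NSCL61, 6.39 and 6.42 in OPC, and 4.33 and 3.99 in OPCL61. It was 4.45 and 4.29 in AST and 5.02 and 4.66 in ASTL61. Low Reck was thus not limited to the lines, since both arrays of the parental AST were below both of NSCL61. No gene of this list, of the list of 17 or of the 3 lists that follow passed the threshold in ASTL61.

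Among ADAM and ADAMTS proteases, relatives that shed membrane proteins or cut proteoglycans, 17 of 21 were tested. In NSCL61 3 rose and 7 fell (median -0.35), beside 20.7% and 17.1% of all genes: Adam12 fell by 3.48 ± 0.31, the aggrecanase Adamts5 fell by 1.79 ± 0.17, and Adamts7 rose by 2.31 ± 0.24. In OPCL61 5 rose and 6 fell (median 0.19), beside 24.5% and 23.9% of all genes: Adam22 fell by 2.11 ± 0.27, Adam12 fell by 1.67 ± 0.31, and the aggrecanase Adamts4 rose by 1.66 ± 0.30. Without any 1 of the 4 arrays compared, array 1 or 2 of OPC or of OPCL61, 7 of the list passed the threshold in OPCL61 in place of 11.

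The matrix proteins that these enzymes cut form a list of 23, of which 21 were tested. In NSCL61 2 rose and 12 fell, with a median difference of -2.41 against 0.04 over all genes, of which 20.7% rose and 17.1% fell. The fibrillar collagen genes Col5a2 (-8.95 ± 0.18), Col1a1 (-8.46 ± 0.30) and Col1a2 (-8.41 ± 0.20) fell. Col1a2, for one, read 13.80 and 13.66 in NSC and 5.21 and 5.43 in NSCL61, so the last is near the median of all values. In OPCL61 10 rose and 4 fell (median 0.71), beside 24.5% and 23.9% of all genes. The basement membrane genes Col4a2 and Lamb1 rose by 4.82 ± 0.21 and 4.48 ± 0.15, and Bcan, which codes for the brain proteoglycan brevican and is also in the precursor marker list, fell by 4.71 ± 0.22. The list shares Col1a1, Col1a2, Col3a1 and Dcn with the fibroblast and pericyte markers.

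Transcription factors known to act on metalloproteinase genes, mostly of the AP-1 and Ets families, form a list of 20, of which 17 were tested. In NSCL61 3 rose and 3 fell (median 0.10), shares close to the 20.7% and 17.1% of all genes: the AP-1 subunit Fosl1 rose by 2.16 ± 0.31 and Fosb by 1.41 ± 0.26, and Fosl2 fell by 0.79 ± 0.15. Without array 2 of NSCL61 3 of the list passed in place of 6. In OPCL61 10 rose and 2 fell (median 0.71), beside 24.5% and 23.9% of all genes: Fosl1 rose by 5.28 ± 0.31, Fosl2 by 3.67 ± 0.15 and Cebpb by 3.41 ± 0.19. Fosl1 read 4.74 and 5.22 in OPC and 10.09 and 10.45 in OPCL61, and between 8.81 and 11.16 in the other 4 groups. Fosl1 was 9.98 and 11.09 on the 2 arrays of ASTL61, a gap inside that group's 99% limit of 1.29. The median gap of all genes tested there was 0.18, and array 2 was the higher, as for Mmp3, Mmp10 and Mmp13. In NSC, where the 2 arrays were far apart for Mmp3 and Mmp13, Fosl1 read 8.91 and 8.81. The part of Fosl1 in these gaps was not tested.

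For each of the 10 genes the 3 tested genes with the most similar pattern were found, by Pearson's r of the means of the 6 groups. The 6 points are means of 2 arrays and share the same processing, and a gene with a narrow range can reach a high r. Mmp2 was most like Arhgap28 (r = 0.998), 4931429L15Rik and Fam20a. Mmp3 was most like Odf3 (r = 0.976), Il6 (r = 0.953) and Batf2, of which Odf3 moved only between 5.69 and 5.86 while the cytokine gene Il6 ran from 3.36 in OPC to 7.63 in ASTL61. The nearest to Mmp9 were Lif (r = 0.986), Dlk1 and Glis3, and the cytokine gene Lif was 4.26 in OPC and 8.86 in OPCL61. Mmp10 had Mt2 (r = 0.996), Brf2 and Ramp3 (r = 0.992), with the metallothionein gene Mt2 at 12.07 in NSCL61 and 8.92 in OPC. Mmp11 had Fgfr1 (r = 0.994), Stbd1 and Erg. Mmp13 had Acp7 (r = 0.988), Zbtb3 and Ptges (r = 0.983), and Ptges, a prostaglandin E synthase gene, was highest in NSCL61 (9.05) and lowest in OPC (4.71), as the mean of Mmp13 was. Mmp14 had Cd74 (r = 0.999), C2cd2 and Cavin3 (r = 0.994), with Cavin3 at 8.58 in NSC and 4.51 in OPC. Timp1 had Eml3 (r = 0.995), Csrp2 and Rbms1 (r = 0.994), and Rbms1 was 6.33 in OPC and 10.60 to 10.93 in the other groups. Timp2 had Shroom1 (r = 0.998), Tmem63a and Nkx2-5, and Timp3 had Thap3 (r = 0.988), Isca1 and Osbp.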

How the data were processed

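Expression was measured in 12 total RNA samples, 5 µg of each labelled in vitro, on arrays of 45101 probe sets. The deposited values are log2 signals; how the authors corrected and normalised them is not given in the sources used here. The number of arrays limits the precision. Names came from the platform's annotation, which gives 1 symbol to 34945 probe sets. RefSeq's GRCm38.p6 table holds the Entrez identifier of 34741 of them. A probe set was kept where any group mean exceeded 5.18, the median of all values, and the one with the highest mean over all arrays stood for its gene.

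All 12 arrays were fitted as 6 group means in limma 3.58.1 (R 4.3.3), with 6 residual degrees of freedom (9.30 after moderation), 2-sided p-values and Benjamini-Hochberg adjustment over 12835 genes. Errors are standard errors from the fit. The script was tested on simulated data. A second fit took all 34945 probe sets unfiltered. A group under 5.18 may be at background.

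The 10 genes and the lists were chosen with earlier results of these data known. All 10 genes are named; of each list, up to 3 genes past the threshold with the smallest p in each line are named, and 3 genes by likeness to each of the 10. The alternatives were other normalisations, filters, a mean over probe sets, a trended prior and a replicate block, only the arrays compared, a fold minimum, each array left out and, chosen after seeing the data, leaving out the 3 arrays of high 18S control. The Hras and Trp53 transcripts were not analysed here.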

Additional observations from a re-analysis of the deposited data

Results flagged for a closer look

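The change from parent to line differed between lines in 16 cases, each by limma's test of the difference between 2 changes at an adjusted p under 0.05. The 3 comparisons share arrays. The change in OPCL61 exceeded that in NSCL61 by 3.07 for Mmp11, 3.89 for Mmp14, 4.38 for Mmp2, 1.36 for Mmp9, 8.09 for Timp1, 3.43 for Timp2 and 2.98 for Timp3 on the log2 scale. That in ASTL61 exceeded the change in NSCL61 by 2.43 for Mmp11, 4.11 for Mmp14, 6.35 for Mmp2, 1.88 for Timp2 and 5.28 for Timp3. Between OPCL61 and ASTL61 the gap was -1.97 for Mmp2, 6.85 for Timp1, 1.55 for Timp2 and -2.30 for Timp3. Of these the Timp2 gap between OPCL61 and ASTL61 rests on 1 probe set. Timp1, Mmp14, Mmp11 and Mmp9 may be at background in OPC, from which a fall in OPCL61 may not be measurable.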

How the results depend on the processing

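Quantile normalisation, median centring, no filter and a trended prior left each count of the 10 genes past the threshold within 1.5 times its value. AST minus NSC, with 3 such genes, had 1 with a log2 difference of at least 1 and 5 with only the groups compared. OPCL61 minus NSCL61, with 2, had 1 with the filter at the 75th percentile. Leaving out 1 array gave 1 to 4 for AST minus NSC, 1 to 3 for OPCL61 minus NSCL61 and 0 to 1 for ASTL61 minus AST. The lone array left was taken to vary like the other groups. Without the 3 arrays of high 18S control, a choice made after seeing the data, the counts were 4 for NSCL61 minus NSC, 5 for OPCL61 minus OPC (Mmp3 lost, Mmp14 gained), 0 for ASTL61 minus AST, 1 for OPCL61 minus NSCL61 and 3 for ASTL61 minus NSCL61. With only the groups compared Mmp10 passed in OPCL61 (adjusted p = 0.00132).

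The sign turned when 1 array was left out for differences that had missed the threshold. In NSCL61 minus NSC the range was -1.39 to 1.31 for Mmp3, -0.14 to 0.042 for Mmp9, -0.22 to 3.70 for Mmp13 and -0.43 to 0.26 for Timp1. In ASTL61 minus AST it was -0.44 to 2.84 for Mmp10, -0.042 to 0.51 for Mmp11 and -0.12 to 0.51 for Timp2. It was -0.20 to 0.70 for Mmp14 in OPCL61 minus OPC and -2.56 to 0.15 for Mmp3 in AST minus NSC. The cause was not tested.

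With the replicate block the counts were 5 for NSCL61 minus NSC, 5 for OPCL61 minus OPC and 0 for ASTL61 minus AST. Mmp10 missed the threshold in NSCL61 minus NSC (adjusted p = 0.0507) and in OPC minus AST (adjusted p = 0.0576), and no other call changed. Deviations of arrays of the same number correlated between -0.20 and 0.10 over the genes tested. Low correlations do not settle whether arrays of the same number were handled together. The 18S control stood above 11 on array 2 of NSC, of NSCL61 and of OPC.

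Over all genes, a log2 difference of at least 1 left 2099 of 4851 calls in NSCL61 minus NSC, 2810 of 6219 in OPCL61 minus OPC, 3161 of 6612 in OPC minus NSC, 1335 of 3904 in AST minus NSC, 3080 of 6637 in OPC minus AST, 1321 of 3423 in OPCL61 minus NSCL61, 1702 of 4197 in ASTL61 minus NSCL61 and 1843 of 4702 in OPCL61 minus ASTL61. Without the high 18S arrays, calls were 1950 in NSCL61 minus NSC, 3869 in OPCL61 minus OPC, 3857 in OPC minus NSC, 1724 in AST minus NSC, 1480 in OPCL61 minus NSCL61, 2228 in ASTL61 minus NSCL61 and 0 in ASTL61 minus AST. With only the groups compared there were 0 in ASTL61 minus AST and 2598 in OPCL61 minus ASTL61. For the differences between changes the fold minimum gave 3097 of 4868, 2063 of 3252 and 2792 of 4545, and the 18S setting 2348, 1421 and 2589. With 1 array left out the lowest counts were 3012 for NSCL61 minus NSC, 1798 for OPCL61 minus NSCL61 and 2433 for ASTL61 minus NSCL61, each without array 1 of NSCL61, 2123 for AST minus NSC without array 2 of AST, and 0 to 102 for ASTL61 minus AST, the 102 without array 1 of ASTL61. Signals under 5.18 on both arrays limit the sizes given for Timp1, Mmp14, Mmp11, Mmp3, Mmp9, Mmp10 and Mmp13 in OPC.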
